A study of Mus musculus with 9 samples.

Results

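Along 4.84 Mb of mouse chromosome 12, 10 genes named for their levels in regulatory T cells (Treg cells) stood higher (4 genes) or lower (6 genes) on average in Esrrg-floxed (KO) than in control (WT) mice, with genes of both kinds interspersed. The 10 genes described here are Jkamp, Dhrs7, Trmt5, Prkch, Hif1a, Snapc1, Sgpp1, Syne2, Churc1 and Fntb, matched by symbol among the 26683 genes of the count table, and all 10 passed the filter on low counts. They were named with the difference between KO and WT in these same libraries already known, together with their direction and co-variation, so their KO and WT levels are given as a description, and no test of them is used as support.

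RNA came from splenic Treg cells, sorted as CD4-positive cells with the yellow fluorescent reporter of Foxp3. The mice were labelled female and aged 2 to 3 months, with 1 library per mouse. The 4 KO mice were EsrrgNf/f.Foxp3YFP-Cre, in which Cre recombinase, made under Foxp3, acts on a floxed Esrrg gene, the gene of the nuclear receptor estrogen-related receptor gamma. The 5 WT mice were B6N.Foxp3YFP-Cre and carry the same reporter and Cre without the floxed gene. The bracketed library names begin with Err in each KO title and with B6-N in each WT title; if these names mark separate colonies or strains, that cannot be told apart from genotype.

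The libraries held 15269014 to 17425634 counts. Esrrg had 0 counts in each KO and WT library, where 3 counts would be 0.172 to 0.196 CPM (counts per 1000000 counts of the library), so the deletion could not be checked at this depth. Foxp3 lay at 538 to 593 CPM in KO and 523 to 598 CPM in WT. The libraries labelled KO 1 and KO 4 stood apart in markers of other cells. Over 7 B and plasma cell markers, the summed level was 168 CPM in KO 1 and 510 CPM in KO 4, 52.5 and 72.5 CPM in KO 2 and KO 3, and 32.5 to 86.8 CPM in WT. Over 5 macrophage markers it was 7.28 to 63.0 CPM in KO and 10.2 to 22.5 CPM in WT, and over 5 neutrophil markers 0.506 to 26.8 CPM in KO and 0.182 to 5.24 CPM in WT. The library labelled KO 4 also held Xist, the RNA of the inactive X chromosome, at 1.68 CPM, against 1731 to 2048 CPM in KO 1 to KO 3 and 1725 to 1966 CPM in WT. The Xist value of KO 4 goes against its label of a female mouse, and the reason was not tested. None of the markers of these lists was at 0 in every library. Values without KO 1 and KO 4 are given beside many of the results. In bulk RNA, fewer cells of a type and less RNA per cell cannot be told apart.

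As background, Hif1a encodes the oxygen-regulated subunit of hypoxia-inducible factor 1, a transcription factor that is degraded when oxygen is plentiful and that otherwise switches on glycolytic and other hypoxia genes through the DNA core ACGTG or GCGTG. Prkch encodes protein kinase C eta, which in mouse Treg cells binds the inhibitory receptor CTLA-4 at the contact with antigen-presenting cells. The other genes serve unrelated cellular tasks, from tRNA modification to nuclear anchoring, and share a stretch of chromosome, not a pathway.

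The interval ran from the start of Jkamp to the end of Fntb (mm10, chr12:72085589-76921412, 4.84 Mb). GENCODE M21 annotates 86 genes there, 43 of them protein-coding. The count table held 44 of these genes, of which 24 were tested, namely the 10 named genes and 14 others. In order, Jkamp (chr12:72085589-72101461, plus strand) was followed by Dhrs7 (chr12:72650353-72664909, minus), Trmt5 (chr12:73280011-73286710, minus), Prkch (chr12:73584796-73778185, plus), Hif1a (chr12:73901375-73947530, plus) and Snapc1 (chr12:73964481-73988966, plus). After a stretch of 1460 kb without a tested gene came Ppp2r5e and Wdr89, then Sgpp1 (chr12:75714249-75735729, minus), Syne2 (chr12:75818134-76110926, plus), Churc1 (chr12:76765538-76783180, plus) and Fntb (chr12:76765589-76921412, plus). All 10 are protein-coding, and the spans cover exons and introns.

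Neither the strand setting nor the annotation of the counting was stated, and 6 of the 10 overlap another annotated gene. In GENCODE M21, the spans of Churc1 and Fntb start 51 bases apart on the same strand, and the genes share 257 exon bases. The 250 bases before the RefSeq start of Fntb lie at chr12:76837217-76837466, inside its GENCODE span and beyond the end of Churc1. A further annotated gene on the plus strand, Gm49321, shares 148 exon bases with Hif1a and 297 with Snapc1. Jkamp shares 121 exon bases with Ccdc175 and Hif1a shares 330 with Gm15283, both on the minus strand, but these partners had 5 and 3 counts over all 9 libraries together. Syne2 shares 10 exon bases with Mir5101.

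The upstream sequences of 3 genes show what lies before genes of this interval that stood in opposite directions. They are the 250 bases before the RefSeq start (build GRCm38.p6), 5′ to 3′ on the gene's own strand, with every ACGTG or GCGTG on either strand in capitals (on the other strand it reads CACGT or CACGC). The Hif1a window lies within the GENCODE span of the gene, outside its annotated exons. Hif1a and Snapc1 are tested neighbours on the same strand, and Sgpp1 is the nearest named gene downstream of them. The windows are chr12:73907617-73907866 for Hif1a, chr12:73964247-73964496 for Snapc1 and chr12:75735730-75735979 for Sgpp1.
Hif1a: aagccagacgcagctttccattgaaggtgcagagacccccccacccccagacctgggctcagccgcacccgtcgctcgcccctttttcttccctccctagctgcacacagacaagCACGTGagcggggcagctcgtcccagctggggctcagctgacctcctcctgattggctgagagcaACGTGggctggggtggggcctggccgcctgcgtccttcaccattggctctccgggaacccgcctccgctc
Snapc1: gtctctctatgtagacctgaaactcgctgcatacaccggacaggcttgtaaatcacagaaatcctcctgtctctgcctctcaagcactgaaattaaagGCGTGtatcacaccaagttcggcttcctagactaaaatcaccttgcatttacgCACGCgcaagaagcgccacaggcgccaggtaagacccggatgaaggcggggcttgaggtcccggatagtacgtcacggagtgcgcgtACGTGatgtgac
Sgpp1: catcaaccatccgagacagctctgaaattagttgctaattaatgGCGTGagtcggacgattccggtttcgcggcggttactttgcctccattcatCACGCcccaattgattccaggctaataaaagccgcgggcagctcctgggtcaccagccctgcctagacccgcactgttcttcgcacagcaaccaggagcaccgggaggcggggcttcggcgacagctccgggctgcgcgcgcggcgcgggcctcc
The Hif1a window holds the palindrome CACGTG, which matches on both strands, and a further match.

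RefSeq windows were matched for 9 of the 10 genes, all but Prkch. The hypoxia core ACGTG or GCGTG, searched on both strands, stood in 5 of these 9 windows (Dhrs7, Hif1a, Snapc1, Sgpp1 and Syne2) and in 38.6% of all 32851 windows of the same length. The extended half-site TNAAGGTCA, the kind of site that estrogen-related receptors bind, stood in 0 of the 9 windows and in 1.14% of all windows. Its shorter core AGGTCA, which TNAAGGTCA contains, stood in the window of Hif1a alone among the 9, and in 14.0% of all windows. A match is a run of letters and not a measured binding site. The windows of the 9 genes held 45.2% to 70.0% G and C, against a median of 52.4% over all windows.

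**Figure D1:**
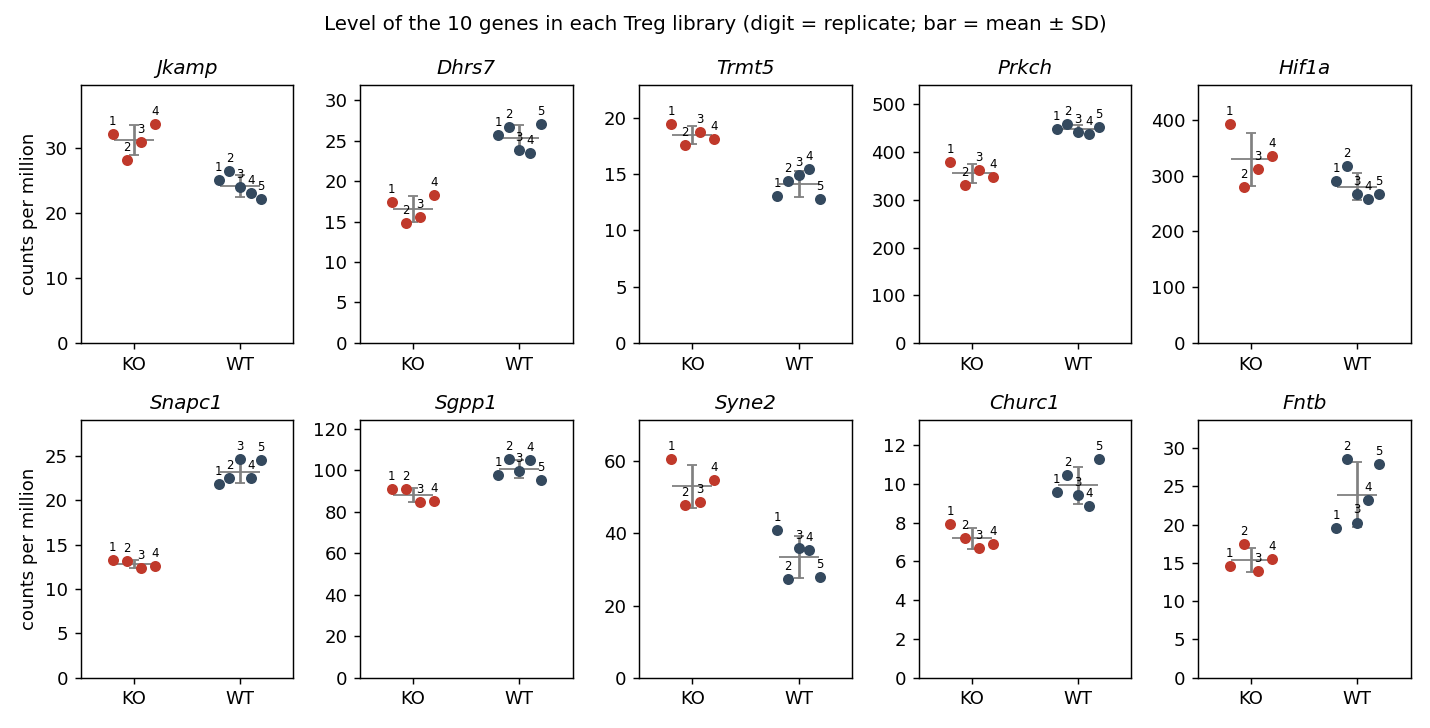
CPM of the 10 genes in each library, KO left and WT right; each point is a mouse with its replicate digit, and the grey bar is the mean with its SD (n = 4 KO and 5 WT). Jkamp, Trmt5 and Syne2 lie higher in all KO libraries, 6 genes lie lower in all KO libraries, and Hif1a overlaps, with KO 2 at 279 CPM below WT 1 and WT 2.

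Hif1a, the gene that gives the block its name, was the one member whose groups overlapped. It had 392.2, 279, 312 and 335 CPM in KO 1 to KO 4, against 291, 317, 268, 258 and 267 CPM in WT 1 to WT 5. KO 1 and KO 4 lay above the whole WT range, while KO 2 and KO 3 lay within it. The mean was 329.5 ± 47.7 CPM (SD, n = 4) in KO and 280 ± 24.0 CPM (SD, n = 5) in WT. On the log2 scale the fold change, KO over WT, was 0.23 ± 0.09 (SE), and 0.09 ± 0.08 without KO 1 and KO 4. The marker sums of B and plasma cells, macrophages and neutrophils were also highest in KO 1 and KO 4, and their part in the Hif1a level was not tested.

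Prkch had the highest mean CPM of the 10, and its levels were lower in KO. It had 380.2, 332, 362 and 347 CPM in KO 1 to KO 4, against 448, 458.5, 442, 438 and 453 CPM in WT 1 to WT 5. All KO libraries lay below all WT libraries, and the WT values spread by a coefficient of variation of 1.88%, against 5.84% in KO. The log2 fold change was -0.33 ± 0.04 (SE, n = 4 and 5), and -0.36 ± 0.04 without KO 1 and KO 4.

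Per length, Hif1a and Prkch stood in a different order in KO and in WT. Scaled to the length of all annotated exons, Hif1a reached 55.9 CPM per kb in KO and 47.5 CPM per kb in WT, and Prkch 47.2 CPM per kb in KO and 59.5 CPM per kb in WT. The ratio of Hif1a to Prkch on this scale was 1.32, 1.07, 1.10 and 1.23 in KO 1 to KO 4, against 0.830, 0.883, 0.774, 0.752 and 0.752 in WT 1 to WT 5. On this scale Hif1a was thus above Prkch in each KO library and below it in each WT library. In CPM without the scaling, Hif1a was above Prkch in KO 1 alone (392.2 against 380.2 CPM). Where the order changes therefore depends on the exon lengths used, 5896 bases for Hif1a and 7530 for Prkch. The remaining members were lower, from Sgpp1 at 15.5 CPM per kb in KO and 17.8 CPM per kb in WT down to Churc1 at 1.26 CPM per kb in KO and Syne2 at 1.25 CPM per kb in WT.

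Snapc1 had the greatest displacement of the 10. It encodes a subunit of the complex that starts transcription of small nuclear RNA genes, and begins 16.9 kb after the end of Hif1a. It had 13.3, 13.2, 12.3 and 12.5 CPM in KO 1 to KO 4, against 21.9, 22.5, 24.7, 22.5 and 24.5 CPM in WT 1 to WT 5. The highest KO value lay far below the lowest WT value, and the KO libraries spread little (12.8 ± 0.469 CPM, SD, n = 4) and stood at a mean 44.7% lower than that of WT (23.2 ± 1.28 CPM, SD, n = 5). Its log2 fold change was -0.85 ± 0.06 (SE), and it lay between -0.87 and -0.84 when each library was left out in turn. Counting error alone amounts to 7.25% at the lowest Snapc1 count, 190.

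The other enzymes of the block with lower values in KO were Dhrs7, Sgpp1 and Fntb. Dhrs7, a short-chain dehydrogenase of the endoplasmic reticulum, had 17.4, 14.9, 15.5 and 18.3 CPM in KO 1 to KO 4, against 25.8, 26.7, 23.8, 23.4 and 27.0 CPM in WT 1 to WT 5. The groups were separate, with a log2 fold change of -0.62 ± 0.07 (SE, n = 4 and 5) that went to -0.73 ± 0.08 without KO 1 and KO 4, the KO libraries in which it was highest. Sgpp1, the phosphatase that removes the phosphate from sphingosine 1-phosphate, had 90.7, 90.7, 84.7 and 85.2 CPM in KO 1 to KO 4, against 97.4, 105, 99.7, 105 and 95.3 CPM in WT 1 to WT 5. This was the smallest shift among the members with separate groups, -0.20 ± 0.04 (SE), and the nearest KO and WT libraries, KO 2 and WT 5, were 90.7 and 95.3 CPM.

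Fntb, the beta subunit of protein farnesyltransferase, had 14.6, 17.5, 14.0 and 15.5 CPM in KO 1 to KO 4, against 19.5, 28.6, 20.3, 23.2 and 28.0 CPM in WT 1 to WT 5. Its WT values spread widely, with WT 2 and WT 5 highest, and its log2 fold change was -0.64 ± 0.12 (SE, n = 4 and 5). Churc1, which encodes a small zinc-binding protein named for its role in the chick embryo, had 7.92, 7.22, 6.69 and 6.89 CPM in KO 1 to KO 4, against 9.60, 10.4, 9.44, 8.84 and 11.3 CPM in WT 1 to WT 5. It was the least abundant member, with 103 to 179 counts in each library, and its log2 fold change was -0.47 ± 0.10 (SE). Churc1 and Fntb overlap in the annotation and moved in the same direction, and reads of the shared exon cannot be assigned to either with certainty.

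Jkamp, Trmt5 and Syne2 had higher values in KO. Jkamp, a membrane protein of the endoplasmic reticulum that binds the kinase JNK1, had 32.2, 28.2, 31.0 and 33.7 CPM in KO 1 to KO 4, against 25.1, 26.5, 23.9, 23.1 and 22.2 CPM in WT 1 to WT 5. Its log2 fold change was 0.37 ± 0.07 (SE, n = 4 and 5), with the closest approach between KO 2 and WT 2. Trmt5, which methylates a guanosine beside the anticodon of tRNA, had 19.4, 17.6, 18.7 and 18.1 CPM in KO 1 to KO 4, against 13.0, 14.4, 14.9, 15.4 and 12.7 CPM in WT 1 to WT 5. The Trmt5 groups were separate, with a log2 fold change of 0.39 ± 0.08 (SE) and 0.38 ± 0.10 without KO 1 and KO 4.

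Trmt5 and Slc38a6, an amino acid transporter family gene, face away from each other with annotated starts 69 bases apart, and their displacements were opposite. Slc38a6 had 13.8, 11.5, 10.98 and 13.3 CPM in KO 1 to KO 4, against 16.1, 13.8, 15.3, 15.7 and 14.0 CPM in WT 1 to WT 5. These groups were separate by a narrow margin, and Slc38a6 did not pass the test over all genes, at -0.28 ± 0.09 (SE, edgeR adjusted p = 0.104). It was singled out for its position after its values were seen.

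Syne2, which encodes nesprin-2, a giant protein that anchors the nucleus to the cytoskeleton, had 60.6, 47.7, 48.7 and 54.9 CPM in KO 1 to KO 4, against 40.8, 27.2, 35.8, 35.4 and 27.9 CPM in WT 1 to WT 5. All KO libraries lay above all WT libraries, with KO 1 and KO 4 highest and WT 2 and WT 5 lowest. The mean was 53.0 ± 5.98 CPM (SD, n = 4) in KO and 33.4 ± 5.76 CPM (SD, n = 5) in WT. Its log2 fold change of 0.66 ± 0.13 (SE) was the greatest increase among the 10, and was 0.54 ± 0.16 without KO 1 and KO 4.

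By edgeR's quasi-likelihood test with Benjamini-Hochberg adjustment over 12738 genes, 418 genes (3.28%) reached the adjusted threshold of 0.05, in KO 1.4% upward and 1.88% downward. Of the 10 members 9 lay past it, 3 higher and 6 lower, all but Hif1a. DESeq2 called 9 of the 10, and 7.21% of all genes. In these 9 the KO and WT libraries did not overlap, as was the case for 9.1% of all tested genes, 3.94% with KO above and 5.16% with KO below. Nothing is read from these counts, since the same contrast was known when the genes were named. The number of members past the threshold also depended on single libraries: it was 4 when WT 3 was left out, 5 for WT 5, 4 for KO 3 and 3 for the library labelled KO 4. It was 6 for WT 4, 7 for KO 1 and 9 for WT 1, WT 2 or KO 2. The count over all tested genes, 418, also fell, to 97, 117, 182 and 103 without WT 3, WT 5, KO 3 and KO 4. Without KO 1 and KO 4 together, 3 members and 118 of all tested genes passed.

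**Figure D2:**
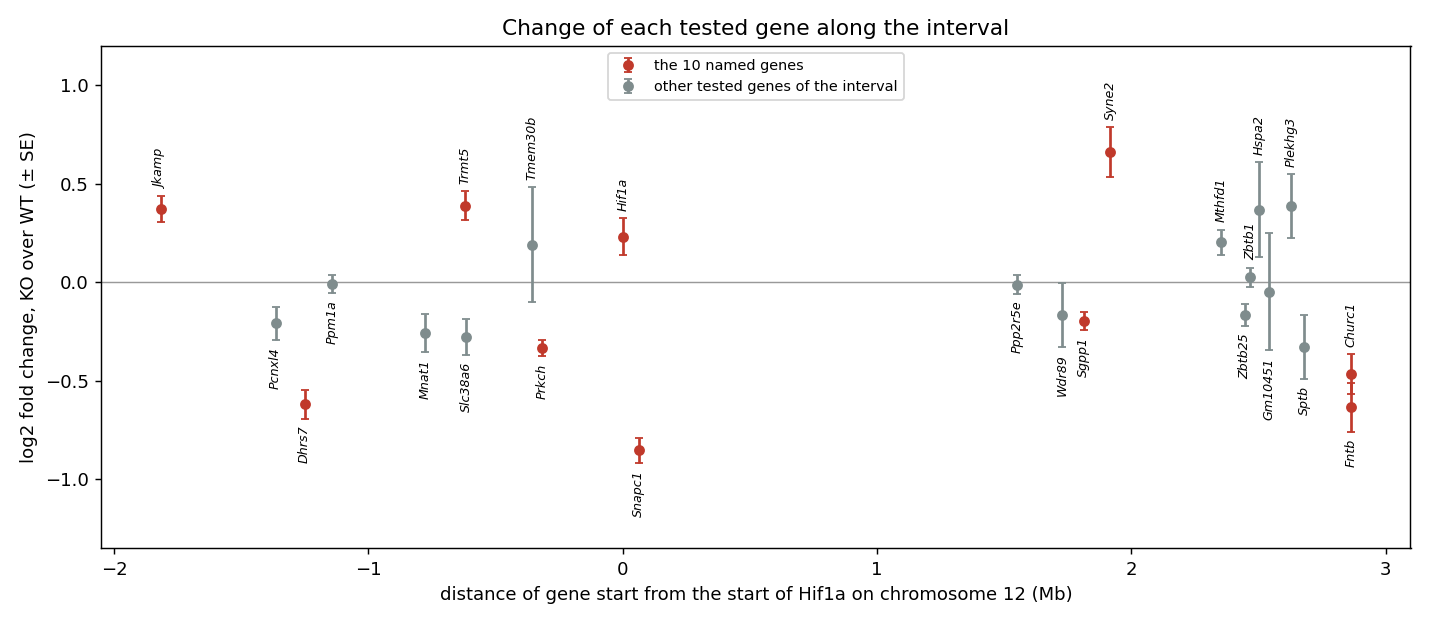
Log2 fold change (KO over WT, with SE) of the 24 tested genes of the interval against the distance of their start from that of Hif1a in Mb; red points are the 10 named genes and grey points the other 14. Positive and negative values are interspersed, from Snapc1 at -0.85 to Syne2 at 0.66, and Ppm1a, Ppp2r5e and Zbtb1 lie near 0.

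The other 14 tested genes of the interval were interspersed with the named ones and held 0 genes past the threshold by edgeR and 0 by DESeq2 or limma-voom, with 6 of 14 at an unadjusted edgeR p under 0.05, against 21.6% of all tested genes. They are the tested genes that were not named, so this count, too, follows from the choice. The most abundant of them, Zbtb1, a zinc finger gene needed for lymphocyte development, had 145 ± 6.77 CPM in KO and 142 ± 8.78 CPM in WT (SD, n = 4 and 5), with a fold change on the log2 scale of 0.03 ± 0.05 (SE) whose sign turned without WT 1. Ppp2r5e, a regulatory subunit of protein phosphatase 2A, was at 83.3 ± 3.83 CPM in KO and 84.0 ± 2.75 CPM in WT (-0.01 ± 0.05), and the phosphatase gene Ppm1a at 79.9 ± 1.92 CPM in KO and 80.4 ± 3.97 CPM in WT (-0.01 ± 0.05), and both signs turned when WT 1 or KO 1 was left out. Zbtb1, Ppp2r5e and Ppm1a, with fold changes near 0, therefore lay between genes that were displaced. They do not stand for all 14, whose median absolute log2 fold change was 0.197, against 0.0965 over all tested genes. In 2 of the 14, Pcnxl4 and Slc38a6, all KO libraries lay below all WT libraries. Groups that did not overlap, in either direction, were seen for 9.1% of all tested genes.

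Mthfd1 and Zbtb25 came nearer to the threshold. Mthfd1, a cytosolic enzyme of one-carbon metabolism, was at 63.4 ± 6.41 CPM in KO and 55.0 ± 3.61 CPM in WT (0.20 ± 0.06 on the log2 scale, SE, edgeR adjusted p = 0.0990), and KO 2 at 60.6 and KO 3 at 58.3 CPM lay below WT 2 at 61.2 CPM. KO 4 was highest, at 72.7 CPM. The log2 fold change was 0.24 without WT 2, where it passed (edgeR adjusted p = 0.0438), 0.14 without KO 4 (0.283) and 0.13 without KO 1 and KO 4 (0.422). Zbtb25, a zinc finger gene whose annotated end lies 664 bases before the start of Zbtb1, was at 35.7 ± 2.31 CPM in KO and 40.1 ± 1.75 CPM in WT (-0.17 ± 0.06, edgeR adjusted p = 0.115). Of the other genes of the interval, Mnat1 passed without KO 1 (-0.37, edgeR adjusted p = 0.0368) and Plekhg3 without KO 2 (0.53, adjusted p = 0.0422). A further 20 genes of the table in this interval were not tested, among them Esr2, the gene of estrogen receptor beta, which had 0 to 2 counts per library in KO and 0 or 1 in WT.

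The 5 Mb on either side of the interval were compared in the same fit. Before Jkamp, 3 of 31 tested genes passed, or 9.68%, and after Fntb 1 of 31, or 3.23%, against 2.58% (10 of 387) on the rest of chromosome 12. Frmd6, which encodes a FERM domain protein linked to Hippo signalling, had 38.8, 44.7, 41.5 and 37.8 CPM in KO 1 to KO 4, against 60.6, 57.3, 58.5, 59.8 and 61.7 CPM in WT 1 to WT 5. It fell by 0.55 ± 0.06 on the log2 scale (SE, edgeR adjusted p = 0.000818), lower in 4 of 4 KO libraries, and passed in 9 of 9 fits that left out a library. Arid4a, a chromatin protein that binds the retinoblastoma protein, rose by 0.26 ± 0.06 (edgeR adjusted p = 0.0304), to 219 ± 14.4 CPM in KO, against 183 ± 9.07 CPM in WT, and passed in 3 of the 9 fits.

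Arf6, a small GTPase of membrane traffic, rose by 0.17 ± 0.04 on the log2 scale (SE, edgeR adjusted p = 0.0460), to 372.5 ± 4.12 CPM in KO, against 331 ± 13.5 CPM in WT, and passed in 2 of the 9 fits. On the far side, Pcnx changed by -0.23 ± 0.05 (edgeR adjusted p = 0.0214), with 93.1 ± 4.13 CPM in KO and 109 ± 4.55 CPM in WT, and passed in 5 of the 9 fits. For these 3 genes the calls ended without WT 3, WT 5, KO 3 or KO 4, among others, and without KO 1 and KO 4 together Arid4a passed (adjusted p = 0.0145), as did Frmd6 (0.00536), while Arf6 (0.123) and Pcnx (0.126) did not.

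**Figure D3:**
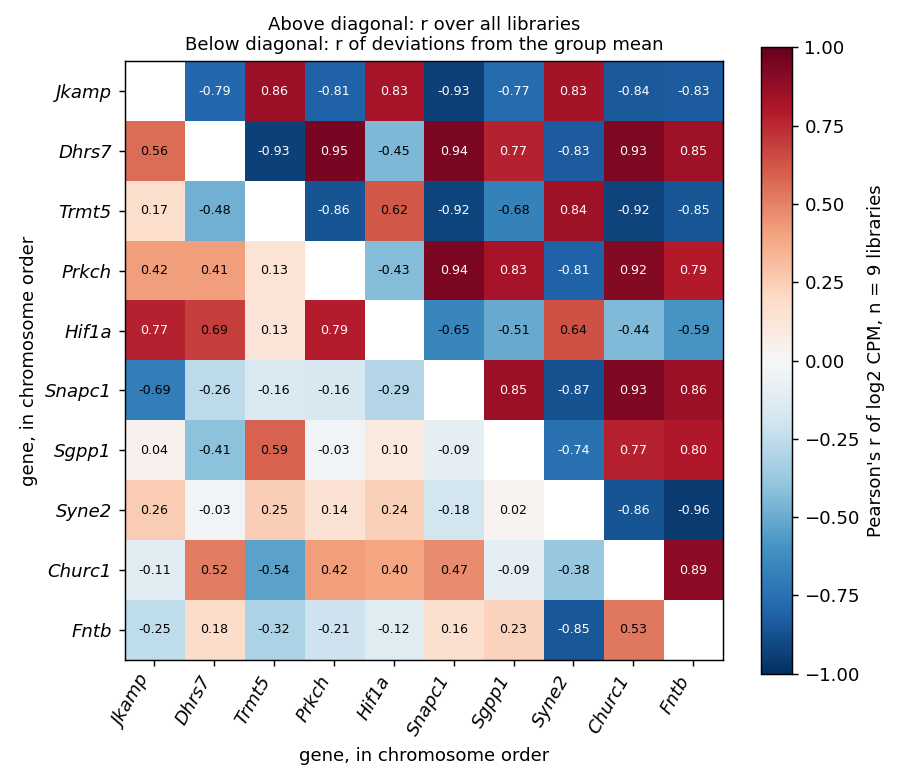
Pearson's r of log2 CPM between pairs of the 10 genes over 9 libraries, with genes in chromosome order; cells above the diagonal use all libraries and cells below it use each library's deviation from its group mean. Above the diagonal the sign follows the direction of the difference between KO and WT, whereas below it the sign varies, from -0.85 for Syne2 and Fntb to 0.79 for Prkch and Hif1a.

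Over the 9 libraries, the members formed a higher and a lower set. Pearson's r of log2 CPM lay between 0.618 and 0.951 for the 21 pairs with the same direction of change and between -0.960 and -0.430 for the 24 pairs with opposite directions. These values repeat the difference between the groups, since all points share it. When each library was expressed as its deviation from its group mean, 14 of the 21 and 11 of the 24 pairs had a positive r, with medians of 0.180 and -0.0695. Deviations of 9 libraries leave few independent points, and r is given here without a test.

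Within the groups, some pairs varied with the opposite sign to that over all libraries. The pairs given here were picked after the values were seen. Prkch with Hif1a had the highest r within groups of all pairs, and Syne2 with Fntb the lowest. Prkch and Hif1a, which stood in opposite directions between groups (r = -0.430), varied together within them (r = 0.785), with KO 1 highest in KO and WT 2 highest in WT for both genes. Dhrs7 and Hif1a likewise had r = -0.446 over all libraries and 0.688 within groups. Jkamp and Hif1a had a positive r on both scales (0.828 and 0.772). In KO, Hif1a, Dhrs7 and Jkamp were all highest in KO 1 and KO 4. The marker sums of B and plasma cells, macrophages and neutrophils were also highest there, and their part in these r values was not tested. Syne2 and Fntb had a negative r on both scales (-0.96 and -0.847). In WT 2 and WT 5 Syne2 was lowest, at 27.2 and 27.9 CPM, and Fntb highest, at 28.6 and 28.0 CPM, while WT 1 had the highest Syne2 value of WT, 40.8 CPM, and the lowest Fntb value, 19.5 CPM.

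Among 9838 genes with a mean of at least 5 CPM, those with the pattern most like that of Hif1a over the 9 libraries were Cstb (Pearson's r = 0.991), Srgn (r = 0.987) and Rnase4 (r = 0.986), none of them on chromosome 12. Srgn, which encodes the granule proteoglycan serglycin, averaged 394 CPM in KO and 330 CPM in WT, and Cstb, the protease inhibitor cystatin B, 19.2 CPM in KO and 17.5 CPM in WT. Srgn was highest in KO 1 and KO 4, at 472 and 409 CPM, the libraries with the highest marker sums of B and plasma cells, macrophages and neutrophils, whose part in these levels was not tested. Without KO 1 and KO 4 the log2 fold change of Srgn was 0.09, against 0.26 with them, that of Cstb 0.06, against 0.14, and that of Rnase4 0.04, against 0.18. The genes most like Prkch were Tbc1d23 (r = 0.981), Lrmp (r = 0.965) and Abl1 (r = 0.964), also on other chromosomes. Abl1, a tyrosine kinase gene, averaged 115 CPM in KO and 136 CPM in WT, and Lrmp 205 CPM in KO and 240.5 CPM in WT. These genes were picked by their likeness to members, so their differences between groups are not tested here.

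**Figure D4:**
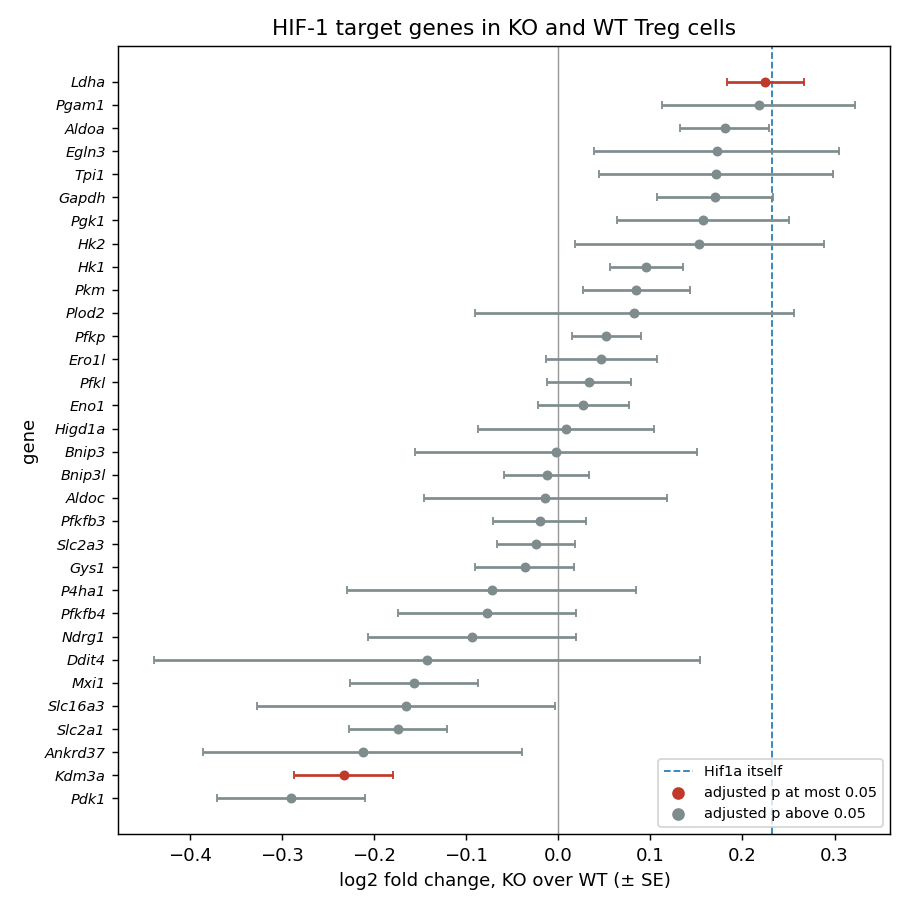
Log2 fold change (KO over WT, with SE) of 32 tested HIF-1 target genes, with the value of Hif1a as a dashed line; red points passed an edgeR adjusted p of 0.05. Ldha at 0.22 and Kdm3a at -0.23 passed, and 16 genes lie on each side of 0.

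Lists of genes chosen as partners, targets or relatives of the members were read from the same fit. Of 32 tested targets of HIF-1, Ldha rose, Kdm3a fell, and 30 did not pass the test, which is 6.25% called beside 3.28% of all genes. Their median log2 fold change was 0.0027, against 0.0052 over all tested genes, with 16 positive and 16 negative. The signs differed by kind. The glycolytic enzyme genes Hk1, Hk2, Pfkl, Pfkp, Aldoa, Tpi1, Gapdh, Pgk1, Pgam1, Eno1, Pkm and Ldha were positive, from 0.03 to 0.22. Aldoc was at -0.01, and Pfkfb3 and Pfkfb4 at -0.02 and -0.08. Of the others, Pdk1 (-0.29) and Slc2a1 (-0.17) were negative and Egln3 (0.17) positive. This grouping was made after the values were seen and was not tested. An unadjusted edgeR p under 0.05 was reached by 8 of the 32, against 21.6% of all tested genes. DESeq2 called 4 of the 32, beside 7.21% of all genes, with Aldoa (0.18 by edgeR) and Pdk1 (-0.29) added. Ldha, the lactate dehydrogenase subunit of glycolysis, was at 467 ± 15.2 CPM (SD, n = 4) in KO and 399 ± 22.6 CPM (SD, n = 5) in WT (0.22 ± 0.04, SE, edgeR adjusted p = 0.0183), and its call ended without WT 3 or KO 4. Kdm3a, a hypoxia-induced histone demethylase, was at 123 ± 8.12 CPM in KO and 145 ± 5.82 CPM in WT (-0.23 ± 0.05, edgeR adjusted p = 0.0391) and passed in 2 of 9 fits that left out a library; without KO 1 and KO 4 neither passed (adjusted p = 0.0803 for Ldha and 0.248 for Kdm3a, whose log2 fold change was then -0.14).

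The mean log2 CPM of the 32 targets was 5.45, 5.47, 5.46 and 5.50 in KO 1 to KO 4, against 5.42, 5.52, 5.44, 5.46 and 5.47 in WT 1 to WT 5. The groups overlapped, with WT 2 highest and WT 1 lowest, whereas Hif1a itself was highest in KO 1. Of 15 genes for partners and regulators of HIF, such as its dimer partners, the VHL ligase and the prolyl hydroxylases, 0 passed by edgeR and 0 by DESeq2, with 2 at an unadjusted p under 0.05, which 21.6% of all tested genes reached. The smallest p was that of Arnt2 (0.42 ± 0.17, SE, edgeR adjusted p = 0.185), at 8.45 ± 2.37 CPM in KO and 6.31 ± 0.937 CPM in WT. KO 1 had 11.8 CPM, and the log2 fold change of Arnt2 was 0.21 without KO 1 and 0.13 without KO 1 and KO 4.

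For protein kinase C and D relatives of Prkch, 0 of 9 tested genes passed by edgeR or DESeq2, with 1 at an unadjusted p under 0.05. The log2 fold change was negative for 8 of the 9, against 6177 of 12738 over all tested genes. The median of the 9 was -0.06. Prkcd, protein kinase C delta, had the smallest p, at 106 ± 4.41 CPM in KO and 115.5 ± 3.76 CPM in WT (-0.12 ± 0.04, SE, edgeR adjusted p = 0.126). In the list of CTLA-4 and the PIX, GIT and PAK proteins that work with protein kinase C eta, 0 of 7 passed by either tool, with 3 of 7 at an unadjusted p under 0.05, against 21.6% of all tested genes, and the scaffold gene Git1 was at 108 ± 2.37 CPM in KO and 117.5 ± 3.85 CPM in WT (-0.12 ± 0.04, edgeR adjusted p = 0.103).

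Among partners of Syne2 in the link between nucleus and cytoskeleton and in the nuclear lamina, 1 of 11 genes passed, or 9.09%, beside 3.28% of all genes, and 5 of 11 had an unadjusted p under 0.05, beside 21.6%. Its paralogue Syne1, which encodes nesprin-1, fell to 71.0 ± 2.16 CPM (SD, n = 4) in KO, against 86.0 ± 7.39 CPM (SD, n = 5) in WT (-0.28 ± 0.06, SE, edgeR adjusted p = 0.0349), and was lower in 4 of 4 KO libraries. The Syne1 call held in 3 of 9 fits that left out a library and ended without WT 3, WT 4, WT 5, KO 1, KO 3 or KO 4, and without KO 1 and KO 4 together its adjusted p was 0.185. The list for Snapc1 held genes of small nuclear RNA and RNA polymerase III transcription. Of these, 1 of 10 passed by edgeR and 0 by limma-voom, and 3 of 10 had an unadjusted edgeR p under 0.05. The gene called was Brf1, a factor of RNA polymerase III, whose link to Snapc1 was not tested. Brf1 fell to 105 ± 3.70 CPM in KO, against 121 ± 7.57 CPM in WT (-0.21 ± 0.05, edgeR adjusted p = 0.0414, DESeq2 adjusted p = 0.00635, limma-voom adjusted p = 0.0528). Its edgeR call was lost in the same 6 fits as that of Syne1 and without KO 1 and KO 4 (adjusted p = 0.261).

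In each of the lists for the remaining members 0 genes passed by edgeR. They were 10 genes of protein prenylation, 9 of sphingosine 1-phosphate metabolism and reception, 12 of JNK and protein degradation at the endoplasmic reticulum, 11 tRNA methyltransferases and 6 of the DHRS family. An unadjusted p under 0.05 was reached by 2, 0, 3, 2 and 1 of them, against 21.6% of all tested genes. DESeq2 called 1 gene of these lists, the tRNA methylation gene Trmt12, which was at 8.36 ± 0.845 CPM in KO and 6.28 ± 0.558 CPM in WT (0.41 ± 0.11, SE, edgeR adjusted p = 0.0565, DESeq2 adjusted p = 0.0404). The smallest p in the other lists belonged to Pggt1b at 0.18, S1pr2 at 0.14, Vcp at 0.11 and Dhrs1 at 0.17, with edgeR adjusted p of 0.112, 0.251, 0.129 and 0.217. Without KO 1 and KO 4 the log2 fold change of Dhrs1 was 0.05. Over all 11 lists, 4 of 132 tested genes passed, or 3.03%, close to the 3.28% of all tested genes.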

How the data were processed

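Bulk RNA-seq of sorted splenic Treg cells from 4 KO and 5 WT mice was analysed. The values are the authors' deposited read counts, not normalized, in a table of gene symbols with a column for each mouse. Per the labels' protocols, total RNA went into TruSeq Stranded libraries. STAR 2.7, DESeq2 and mm10 stand in the submitters' processing notes, without their roles. The counting program and its use of strand are not named in the parts of those notes or labels used here.

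Samples were grouped by title. The test was the quasi-likelihood one of edgeR 4.0.16 under R 4.3.3 (robust, TMM scaling, default expression filter), with Benjamini-Hochberg adjustment over 12738 genes and a threshold of 0.05; SE derives from the fold change and F. CPM is the count per 1000000 counts of the library, and log2 CPM used a prior count of 2. Symbols were placed with GENCODE M21, 24745 by name and 609 by synonym, and 1329 were not placed. The closest pair of libraries had a chi-square per degree of freedom of 2.60, so none were duplicates. The test was tried on simulated counts. The floor of 3 counts takes in counting error and no other.

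The members and gene lists were chosen with earlier results of these data known. Named genes are all members, the 5 most abundant other genes of the interval and any called there, up to 3 called genes per list (or the 1 with the smallest p), up to 3 called genes per 5 Mb flank, and the 3 genes most correlated with Hif1a and with Prkch. Markers were summed over fixed lists; none of the NK, CD8 or erythroid markers was called, nor any of the others, and their sums reached 7.17, 13.9 and 21.1 CPM in KO and 5.04, 13.6 and 15.4 CPM in WT. Alternatives were other scalings, filters, DESeq2 1.42.0, limma-voom (limma 3.58.1), replicate blocks, and leaving out libraries.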

Additional observations from a re-analysis of the deposited data

Results flagged for a closer look

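Values of the 24 tested genes of the interval were screened in each group for a library far from the others, 48 groups in all, of which chance flags about 1 in 20. Wdr89, which lies between Ppp2r5e and Sgpp1, reached 38.7 CPM in WT 2, against 21.9 to 24.2 CPM in the other WT libraries; the KO libraries ranged from 22.3 to 25.5 CPM. The long non-coding RNA gene Gm10451 reached 2.66 CPM in KO 3, while the next KO library was at 1.55 CPM and WT ranged from 1.07 to 2.68 CPM. None of the 10 named genes had such a library.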

How the results depend on the processing

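The 10 named genes kept the direction of their difference under all 19 alternatives (190 values), of which 1 moved by more than the spread between replicates, Dhrs7 without KO 1 and KO 4. In 9 of the 10 the KO and WT libraries did not overlap, so leaving out libraries could not turn their sign. The genes were also named with their direction known, and nothing is read from its being kept. The count of genes past the threshold, 418, was 919 with DESeq2 and 118 without KO 1 and KO 4, a choice made after results were seen. Leaving out 1 library gave 97 (without WT 3) to 697 (without WT 2), and 134, 117, 182 and 103 without WT 4, WT 5, KO 3 and the library labelled KO 4. The other genes of the interval gave 0 to 1 when a library was left out. The pathway lists gave 8 with DESeq2 (Aldoa, Pdk1, Syne4 and Trmt12 beside the 4 of edgeR), 0 without KO 1 and KO 4, and 0 to 7 when a library was left out; the cause was not tested.

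Same-numbered KO and WT libraries did not deviate together, and none matched its own number best. Their r ran from -0.0669 to 0.100 by title number and from -0.260 to 0.0990 by bracketed number. No pairing was seen, but these few correlations cannot exclude one. Using title numbers as the replicate block, 26 genes passed, 4 of the members, 0 of the other interval genes and 0 of the lists; with the bracketed number as a block 443 passed, 8 of the members (Hif1a among them, without Sgpp1 and Churc1), 0 of the other interval genes and 5 of the lists.

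Among named genes near 0 the sign turned for Zbtb1 without WT 1 (-0.0033; up to 0.057 without KO 4), for Ppp2r5e without WT 1 (0.0057), KO 1 (0.011), KO 4 (0.0038) or both KO libraries (0.047; down to -0.050 without KO 2), and for Ppm1a without WT 1 (0.014), KO 1 (0.0059) or both KO libraries (0.016; down to -0.042 without WT 5).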
